A study of Mus musculus with 48 samples.

Results

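Cyp2a4, Cyp2a5, Cyp2a12, Cyp2a22, Cyp2b9, Cyp2b10 and Cyp2b13 are 7 cytochrome P450 genes of the mouse Cyp2a and Cyp2b subfamilies, taken by gene symbol from the 55414 genes of a liver count table. All 7 passed the filter on low counts that left 15414 genes for testing. The table holds 48 liver libraries, each from 1 mouse of the FCG model on a C57BL/6 background. In this model Sry, the gene that directs testis formation, is deleted from the Y chromosome (XY-) and supplied as an autosomal transgene (SryTg), so the gonad and the sex chromosomes vary independently. XX and XY- mice have ovaries, and XX;SryTg and XY-;SryTg mice have testes. Of each genotype, 6 mice kept their gonads (Intact) and 6 were gonadectomized (GDX) at 75 days of age. Every mouse ate a high-fat diet with 60% of calories from fat from 15 to 17 weeks of age, for 11 weeks in Intact mice and 15 weeks in GDX mice by the sample labels, from which the methods text of the study differs in both durations. Gonadal status, weeks of diet, age at the end of the diet and cohort therefore cannot be told apart. Below, XY stands for the labels XY- and XY-;SryTg, and the arms are named by the gonad that a mouse has or had.

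Cytochromes P450 are membrane-bound enzymes that oxidize steroids, drugs and other lipophilic molecules with electrons from NADPH-cytochrome P450 reductase. The Cyp2a and Cyp2b genes lie in 1 cluster on chromosome 7 and are expressed mainly in hepatocytes. Cyp2a4 encodes a testosterone hydroxylase, and its near-identical neighbor Cyp2a5 encodes the mouse coumarin hydroxylase, which also oxidizes nicotine. Cyp2b10 is the classic target of the constitutive androstane receptor (CAR, encoded by Nr1i3), the receptor behind phenobarbital induction. Cyp2a4, Cyp2b9 and Cyp2b13 are known as female-biased genes of the mouse liver, where the sex-dependent pattern of growth hormone secretion acts through STAT5b and repressors such as Bcl6 and Cux2.

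On the NCBIM37 reference, an older build than the GRCm39 genome used for alignment, the 7 genes run in the order Cyp2b10 (chr7:26682639-26711643), Cyp2b13 (chr7:26846514-26881215), Cyp2b9 (chr7:26958430-26995680), Cyp2a4 (chr7:27092209-27100107), Cyp2a5 (chr7:27620324-27628567), Cyp2a22 (chr7:27716650-27724405) and Cyp2a12 (chr7:27814109-27821826). Cyp2a22 is on the minus strand and the others are on the plus strand. The coding sequences of Cyp2a4 and Cyp2a5 were 98.5% identical, with 23 mismatches, those of Cyp2a12 and Cyp2a22 97.0%, those of Cyp2b9 and Cyp2b13 92.5%, and those of Cyp2b9 and Cyp2b10 87.7%. Because reads that map to several places were not assigned to a gene in the deposited table, shared sequence bears on every level given here. Of all 50-base stretches of the longest annotated transcript, 63.5% in Cyp2a4, 69.0% in Cyp2a5, 72.1% in Cyp2a12, 79.4% in Cyp2a22, 81.0% in Cyp2b13, 89.2% in Cyp2b9 and 92.1% in Cyp2b10 occurred in no other protein-coding gene.

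The 150 bases before the RefSeq start of each gene (GRCm38.p6) are shown because genes with almost the same sequence there, Cyp2b9 and Cyp2b13 above all, had unlike levels in Intact mice with testes. Capitals mark bases that differ from, or have no partner in, an alignment of the 250 bases before each start, of which the last 150 are printed, so that a lower-case base at the left end can have its partner just outside the printed stretch. The pairs were Cyp2b9 with Cyp2b13, Cyp2a4 with Cyp2a5 and Cyp2a22 with Cyp2a12, while Cyp2b10 is set against Cyp2b9.
Cyp2b9 (chr7:26173259-26173408, + strand): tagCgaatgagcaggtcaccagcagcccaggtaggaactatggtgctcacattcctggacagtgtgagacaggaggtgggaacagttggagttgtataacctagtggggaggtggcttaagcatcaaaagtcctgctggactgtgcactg
Cyp2b13 (chr7:26061345-26061494, + strand): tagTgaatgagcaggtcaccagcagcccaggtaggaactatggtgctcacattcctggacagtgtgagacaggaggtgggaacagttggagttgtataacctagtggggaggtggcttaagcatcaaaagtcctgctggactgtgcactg
Cyp2b10 (chr7:25897508-25897657, + strand): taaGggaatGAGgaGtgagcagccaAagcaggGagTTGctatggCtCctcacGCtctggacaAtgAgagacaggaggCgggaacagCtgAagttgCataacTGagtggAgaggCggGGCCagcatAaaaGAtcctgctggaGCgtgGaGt
Cyp2a4 (chr7:26307042-26307191, + strand): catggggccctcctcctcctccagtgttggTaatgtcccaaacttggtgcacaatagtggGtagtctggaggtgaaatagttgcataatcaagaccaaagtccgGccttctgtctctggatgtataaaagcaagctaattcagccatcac
Cyp2a5 (chr7:26835189-26835338, + strand): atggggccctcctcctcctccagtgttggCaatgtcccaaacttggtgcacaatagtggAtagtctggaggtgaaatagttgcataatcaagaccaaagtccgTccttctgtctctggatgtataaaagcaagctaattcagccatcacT
Cyp2a22 (chr7:26939387-26939536, - strand): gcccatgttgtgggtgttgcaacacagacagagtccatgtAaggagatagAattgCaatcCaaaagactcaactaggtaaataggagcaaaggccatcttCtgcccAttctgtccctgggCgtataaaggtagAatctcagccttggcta
Cyp2a12 (chr7:27028940-27029089, + strand): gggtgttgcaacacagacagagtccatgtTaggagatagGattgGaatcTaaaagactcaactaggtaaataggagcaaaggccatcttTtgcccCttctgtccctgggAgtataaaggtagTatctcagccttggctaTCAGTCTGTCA

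The windows of Cyp2b9 and Cyp2b13 differed at 1 of 150 bases, and over the whole 250 bases before the start they were 99.2% identical. Cyp2a4 and Cyp2a5 were 97.6% identical over the same 250 bases, Cyp2a12 and Cyp2a22 82.4%, and Cyp2b9 and Cyp2b10 70%. The letters TTGCATAA, on either strand, occurred within 250 bases before the start of Cyp2a4, Cyp2a5 and Cyp2b10 and in 0.694% of all 32851 RefSeq windows of that length. The looser TTGCNNAA, which contains TTGCATAA, was found in these 3 and in Cyp2b9 and Cyp2b13, and in 9.56% of all windows. TATAAA was found in all 4 Cyp2a windows and in 12.4% of all windows. TTCNNNGAA, the letters of a STAT site, was in none of the 7 windows and in 7.02% of all windows. These matches describe letters in a short window and not bound sites.

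Each library held 13071874 to 20045141 reads assigned to genes (median, 16577748), and 3 reads, taken as the detection floor, corresponded to 0.150 to 0.230 CPM, the reads of a gene scaled to a library of 1000000 reads on genes. Xist was at 123 to 1138 CPM in XX mice and at 0.352 to 8.36 CPM in XY mice, and each of 4 Y-linked genes separated the same mice, so the libraries matched their chromosome labels. Hepatocyte markers (4 of 4) summed to 65851 to 128899 CPM in every mouse. All 4 Kupffer cell and macrophage markers had reads in every library. Of the 4 neutrophil markers, Ly6g had 0 reads in 34 and Mpo in 17 of 48 libraries, so that sum is mostly S100a8 and S100a9. The sums are given by sex chromosomes beside the chromosomal effect. Reads that fell in no annotated gene made up 3.47 to 6.20% of reads in Intact libraries and 8.52 to 11.3% in GDX libraries. In a bulk sample, fewer cells of a type and less RNA per cell cannot be told apart.

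**Figure D1:**
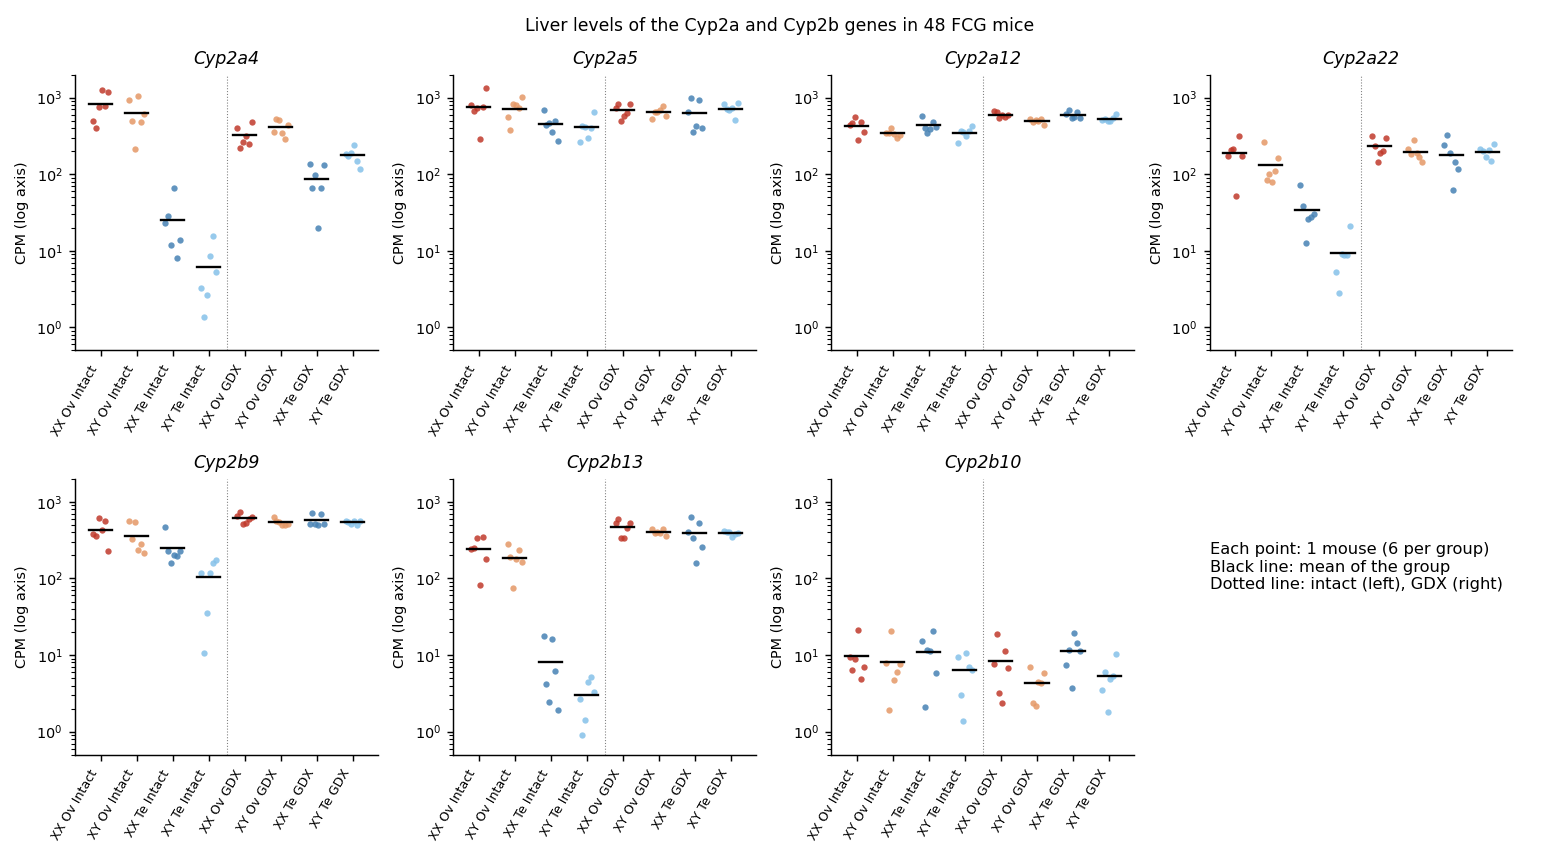
Level of each of the 7 genes in every mouse (y axis, CPM, log scale) by group (x axis), with 1 point per mouse, a black line at the mean of 6 mice and a dotted line between Intact and GDX groups. Cyp2b13 and Cyp2a4 sit lowest in Intact mice with testes, at 0.899 to 17.8 and 1.38 to 66.3 CPM, while Cyp2a12 stays within 256 to 692 CPM in all 48 mice.

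Cyp2a4 differed between ovary and testis groups both with and without the gonads. In Intact mice with ovaries it ranged from 405 to 1268 CPM (median, 769) in XX and from 211 to 1061 CPM (median, 554) in XY mice. In Intact mice with testes the range was 8.12 to 66.3 CPM (median, 18.4) in XX and 1.38 to 15.8 CPM (median, 4.26) in XY mice. Every Intact mouse with ovaries lay above every Intact mouse with testes. After GDX the range was 217 to 485 CPM (median, 289) in XX and 286 to 521 CPM (median, 399) in XY mice that had ovaries, against 19.7 to 134 CPM (median, 81.8) in XX and 117 to 240 CPM (median, 179) in XY mice that had testes. The former ovary groups stayed above the former testis groups, with 11 of 12 mice that had ovaries above all 12 that had testes. In the order of the 8 group means, the 3 steps from XX Ov GDX through XY Te GDX and XX Te GDX to XX Te Intact exceeded the larger SD of the pair compared, and the other 4 steps did not.

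Cyp2b13, the closest relative of Cyp2b9, was low in Intact mice with testes and abundant everywhere else. Intact mice with ovaries held 82.4 to 345 CPM (median, 250) in XX and 75.5 to 279 CPM (median, 185) in XY. Intact mice with testes held 1.90 to 17.8 CPM (median, 5.13) in XX and 0.899 to 5.21 CPM (median, 2.98) in XY, the lowest of these being 13 reads. The 2 ranges left a gap in which no mouse lay. In GDX mice that had ovaries Cyp2b13 was at 340 to 591 CPM (median, 491) in XX and 354 to 444 CPM (median, 403) in XY, and in those that had testes at 158 to 634 CPM (median, 370) in XX and 349 to 413 CPM (median, 396) in XY. All 12 castrated mice exceeded every Intact mouse with testes, and the 4 GDX means did not differ beyond their spread.

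Cyp2a22 followed an order similar to that of Cyp2b13 at lower contrast. Its level was 52.1 to 315 CPM (median, 193) in XX and 79.1 to 261 CPM (median, 104) in XY Intact mice with ovaries. In Intact mice with testes it was 12.8 to 72.8 CPM (median, 28.9) in XX and 2.83 to 21.0 CPM (median, 8.75) in XY. A single XX mouse with ovaries, at 52.1 CPM, fell inside the testis range. The 4 GDX groups covered 62.6 to 320 CPM with medians of 168 to 217 CPM and overlapped throughout. XY Ov Intact over XX Te Intact was the only pair of neighbors, here and for Cyp2b13, whose ranges did not overlap.

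Cyp2b9 varied less. Intact medians were 406 CPM (231 to 618) in XX and 302 CPM (215 to 561) in XY mice with ovaries, against 214 CPM (159 to 477) in XX and 118 CPM (10.5 to 176) in XY mice with testes. The Intact arms overlapped, and only 4 of 12 mice with ovaries lay above every mouse with testes. All 24 GDX mice were between 496 and 732 CPM, with group medians of 518 to 615 CPM. The one step in its order that exceeded the larger SD was the last, from XX Te Intact to XY Te Intact.

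Cyp2a5 and Cyp2a12 were high in every group. Cyp2a5 had medians of 746 CPM (290 to 1341) in XX and 761 CPM (374 to 1020) in XY Intact mice with ovaries, 452 CPM (268 to 689) in XX and 407 CPM (265 to 654) in XY Intact mice with testes, and 534 to 718 CPM in the 4 GDX groups. No step in its order of means exceeded the spread. Cyp2a12, a steroid hydroxylase, had medians of 335 to 455 CPM in the 4 Intact groups and 505 to 593 CPM in the 4 GDX groups. Ovary and testis groups overlapped within each cohort, and in CPM the 4 highest means were those of the GDX groups. On TMM-scaled library sizes the means of XY Ov GDX and XY Te GDX mice were lower, at 430 and 467 CPM, so this order is given for CPM only.

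Cyp2b10 was low in every group, at 21 to 419 reads per library. Group medians ran from 4.43 CPM (2.14 to 7.02) in XY Ov GDX to 11.4 CPM (2.10 to 20.7 and 3.69 to 19.5) in XX Te Intact and XX Te GDX mice. All 8 ranges overlapped, and no step between neighboring means exceeded the SD. The 4 highest means were those of the 4 XX groups.

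Levels were also divided by the full transcript length. This does not correct for the unlike shares of unique sequence given above, so it does not decide the order of members with close values. On this scale Cyp2a4 was the highest member in Intact mice with ovaries (422 CPM per kb, mean of 12 mice), ahead of Cyp2a5 at 368 CPM per kb. In Intact mice with testes Cyp2a12 led at 236 CPM per kb, Cyp2a5 stood at 214 CPM per kb, and Cyp2a4 and Cyp2b13 were at 9.15 and 2.96 CPM per kb. After GDX the leading members of the former ovary arm were Cyp2a5 (331 CPM per kb), Cyp2a12 (330) and Cyp2b9 (307). In the former testis arm the same 3 stood at 334, 341 and 298 CPM per kb. Cyp2b10 stayed at 3.34 to 4.66 CPM per kb in the 4 arms.

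The gonadal effect compares Intact mice with ovaries and Intact mice with testes, averaged over XX and XY. Of the 7 members, 5 were higher with ovaries and none was lower, in a comparison where 25.3% of all tested genes were called in either direction and 14.1% higher with ovaries. Their median log2 difference was 1.31, against 0.04 over all tested genes. Cyp2a4 was 58.7-fold higher with ovaries (log2 5.88, SE 0.37) and Cyp2b13 43.7-fold higher (log2 5.45, SE 0.32). They were the 13th and 16th largest increases among 13157 genes whose mean log2 CPM was 0 or more, and Cyp2a22 was the 27th.

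With edgeR's quasi-likelihood test and Benjamini-Hochberg adjustment over all 15414 genes, the adjusted p was 1.06e-16 for Cyp2a4 and 3.84e-17 for Cyp2b13. Cyp2a22 was 9.11-fold higher (log2 3.19, SE 0.28, adjusted p = 5.83e-12) and Cyp2b9 2.47-fold higher (log2 1.31, SE 0.22, adjusted p = 1.71e-05). Cyp2a5 rose 1.8-fold with ovaries (log2 0.85, SE 0.20, adjusted p = 0.00215), with 8 of 12 mice above every mouse with testes. For Cyp2a12 the difference was -0.02 on the log2 scale (95% interval, -0.20 to 0.17), so a change of the size seen in Cyp2a5 lay outside its interval. Cyp2b10 differed by 0.07 (95% interval, -0.64 to 0.78), an interval that still holds differences of either sign.

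The same contrast was read within each sex chromosome complement. In XX mice Cyp2a4 was 34.4-fold, Cyp2b13 32-fold and Cyp2a22 5.98-fold higher with ovaries. In XY mice the corresponding values were 100-fold, 59.5-fold and 13.9-fold. In each complement 4 of 7 members were called, against 5.82% of all tested genes in XX and 15.5% in XY. Cyp2b9 passed in XY (log2 1.74, adjusted p = 0.000115) and missed in XX (log2 0.87, adjusted p = 0.0813), and Cyp2a5 passed in XX (log2 0.92, adjusted p = 0.0479) and missed in XY (log2 0.77, adjusted p = 0.0621). The difference between the complements was itself tested, and edgeR called 0% of 15414 genes, none of the members among them. At an unadjusted p under 0.05 it passed 989 genes, Cyp2a4 (XX minus XY, log2 -1.54, 95% interval, -2.76 to -0.32) and Cyp2a22 (log2 -1.21) among them, and DESeq2 called 2 genes. The Cyp2a5 call in XX mice was lost in 32 of 48 fits that left out 1 mouse, with a difference of 0.57 (adjusted p = 0.32) without XX Ov Intact mouse 6.

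**Figure D2:**
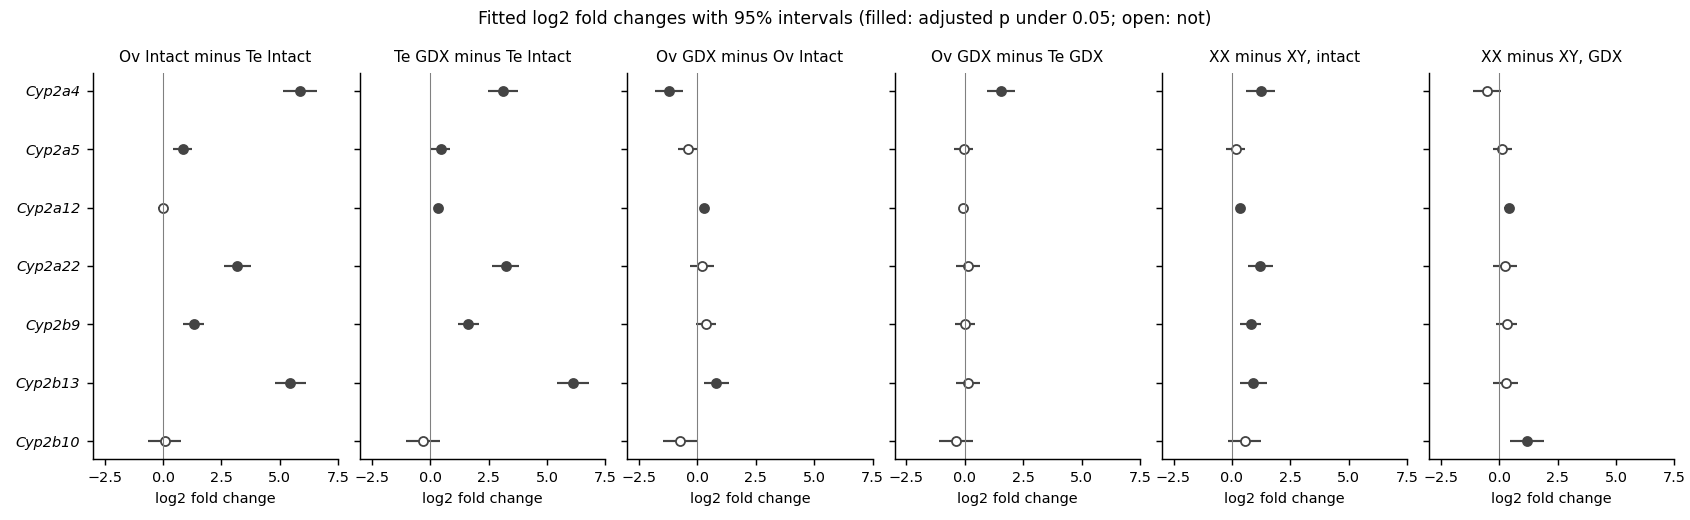
Log2 differences of the 7 genes (x axis) with 95% intervals in 6 comparisons, where a filled point marks an adjusted p under 0.05 by edgeR's quasi-likelihood test. Castration and the gonadal effect in Intact mice move Cyp2a4, Cyp2a22 and Cyp2b13 by 3.11 to 6.11, while between the GDX arms (Ov GDX minus Te GDX) only Cyp2a4, at 1.55, is filled.

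The castration effect compares GDX and Intact mice of the testis arm. Here 6 of 7 members were higher after castration, while 63.3% of all tested genes were called and 33.4% were higher, so a called member was no rarity in this comparison. The members' median was 1.64 on the log2 scale, against 0.07 over all tested genes. Cyp2b13 rose 69.3-fold (log2 6.11, SE 0.33, adjusted p = 1.21e-18), the 4th largest increase of 13157 genes. Cyp2a22 rose 9.33-fold (log2 3.22, SE 0.28, adjusted p = 3.11e-12), Cyp2a4 8.63-fold (log2 3.11, SE 0.32, adjusted p = 1.86e-10) and Cyp2b9 3.11-fold (log2 1.64, SE 0.22, adjusted p = 5.19e-08). All 12 castrated mice exceeded every Intact mouse with testes for Cyp2b13 and Cyp2b9, as did 11 for Cyp2a22 and 9 for Cyp2a4.

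Cyp2a12 rose 1.27-fold (log2 0.34, SE 0.09, adjusted p = 0.00159) and Cyp2a5 1.37-fold (log2 0.46, SE 0.20, adjusted p = 0.0474) after castration. Cyp2b10 had a difference of -0.30 (95% interval, -1.02 to 0.42). The Cyp2a5 call was the weakest and was lost in 28 of 48 fits that left out 1 mouse, with adjusted p up to 0.126, as well as with DESeq2 size factors (adjusted p = 0.0507) and with no filter beyond 1 read (adjusted p = 0.116). Within XX mice 5 members rose (all genes called, 37.1%) and within XY mice 4 (all genes called, 56.7%), in contrasts added after the data had been seen. The rise of Cyp2a4 was 3.21-fold in XX and 23.2-fold in XY mice, that of Cyp2a22 was 5.08-fold and 17.1-fold, and that of Cyp2b13 46.1-fold and 104-fold, and these paired values were not tested against each other. The Cyp2a4 call in XX mice was lost when its reads were summed with those of Cyp2a5 (log2 0.52, adjusted p = 0.0774). In that sum Cyp2a4 made up a mean of 5.64% of reads in XX Te Intact and 13.5% in XX Te GDX mice, so it mostly reports Cyp2a5. In XX mice the Cyp2a12 call (log2 0.40, adjusted p = 0.0162) was lost without XX Te GDX mouse 2 (log2 0.33, adjusted p = 0.0551).

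Ovariectomy moved the members in both directions. Cyp2a4 fell 2.33-fold (log2 -1.22, SE 0.30, adjusted p = 0.000409), Cyp2b13 rose 1.74-fold (log2 0.80, SE 0.26, adjusted p = 0.00661), and Cyp2a12 rose 1.22-fold (log2 0.28, SE 0.09, adjusted p = 0.00669). The other 4 members were not called, in a comparison where 69.4% of all tested genes were called, 36% higher and 33.4% lower. Cyp2a5 had a difference of -0.43 (95% interval, -0.84 to -0.02, adjusted p = 0.0595), Cyp2b10 of -0.74 (-1.46 to -0.01, adjusted p = 0.0654), Cyp2b9 of 0.35 (-0.08 to 0.79) and Cyp2a22 of 0.19 (-0.33 to 0.71). Of the 12 ovariectomized mice, 10 exceeded every Intact mouse with ovaries for Cyp2b13, and for Cyp2a4 the arms overlapped. The Cyp2b13 call was lost with 1 surrogate variable in the model (log2 0.80, adjusted p = 0.0527). Cyp2b9 passed, at a difference of 0.54 (adjusted p = 0.0329), when library totals replaced TMM scaling, which raised the median of all genes by 0.21.

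Castration and ovariectomy were then compared with each other. Their effects differed for 4 of 7 members, against 5.6% of all tested genes in either direction and 2.78% with the larger increase after castration. The castration effect exceeded the ovariectomy effect by 5.31 on the log2 scale for Cyp2b13 (SE 0.40, adjusted p = 8.31e-13), by 4.33 for Cyp2a4 (SE 0.44, adjusted p = 1.81e-09), by 3.03 for Cyp2a22 (SE 0.38, adjusted p = 2.5e-07) and by 1.28 for Cyp2b9 (SE 0.31, adjusted p = 0.00701). For Cyp2a5 the excess was 0.88 (adjusted p = 0.0572), and it was 0.06 for Cyp2a12 (95% interval, -0.21 to 0.32). Both surgical effects also span the cohorts, whose libraries differ in the share of reads outside genes given above. They differ too in multimapping reads, which were not assigned to genes. These were 10.7 to 18.9% (median, 13.3%) in Intact and 8.59 to 10.8% (median, 9.66%) in GDX libraries. The part of both differences in the castration and ovariectomy results was not tested.

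After GDX, the former gonad made a called difference in Cyp2a4 and in no other member. It was 2.93-fold higher in mice that had ovaries than in mice that had testes (log2 1.55, SE 0.30, adjusted p = 0.00759), in a comparison in which 0.0908% of all tested genes, 14 of 15414, were called. The other 6 differences ran from -0.36 to 0.15 on the log2 scale. Their 95% intervals were -0.45 to 0.37 for Cyp2a5, -0.26 to 0.11 for Cyp2a12, -0.37 to 0.67 for Cyp2a22, -0.41 to 0.46 for Cyp2b9, -0.39 to 0.66 for Cyp2b13 and -1.09 to 0.36 for Cyp2b10. The upper bounds for Cyp2a22 and Cyp2b13 were far below the 3.19 and 5.45 that separated their Intact arms. Since Cyp2a4 and Cyp2a5 share most of their sequence, their reads were also summed. The sum gave 0.34 (SE 0.17, adjusted p = 0.99996) in GDX mice, and the call was lost. Cyp2a4 made up a mean of 35.3% of the summed reads in the former ovary arm and 16.7% in the former testis arm. The sum therefore does not decide whether Cyp2a4 itself differed.

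**Figure D3:**
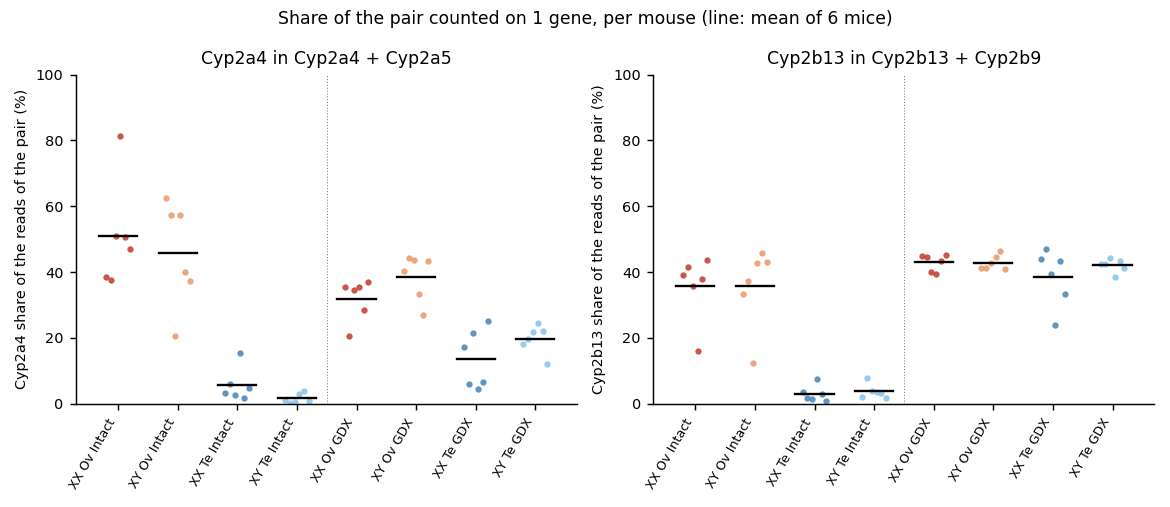
Share of the pair's reads (y axis, %) that fell on Cyp2a4 (of Cyp2a4 plus Cyp2a5) and on Cyp2b13 (of Cyp2b13 plus Cyp2b9) in each mouse, by group, with a line at the mean of 6 mice. The Cyp2b13 share is 0.824 to 7.88% in all Intact mice with testes and 23.8 to 47.0% in all GDX mice, and the Cyp2a4 share is 4.44 to 25.2% in GDX mice that had testes and 20.6 to 44.3% in those that had ovaries.

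The balance within the pairs Cyp2a4 with Cyp2a5 and Cyp2b13 with Cyp2b9 changed with the gonad. Cyp2a12 with Cyp2a22, whose coding sequences are 97.0% identical, was not examined in this way. Cyp2a4 made up 48.4% ± 15.5 (SD, n = 12) of the reads of Cyp2a4 plus Cyp2a5 in Intact mice with ovaries and 3.62% ± 4.15 with testes. After GDX its share was 35.3% ± 7.25 in the former ovary arm and 16.7% ± 7.47 in the former testis arm. In 2-sided permutation tests with 100000 resamples, the shares differed between Intact arms (p = 2e-05, adjusted 5.33e-05), between GDX arms (p = 4e-05, adjusted 8e-05), with ovariectomy (p = 0.0113, adjusted 0.0133) and with castration (p = 0.00014, adjusted 0.000224). Cyp2b13 made up 35.7% ± 10.7 of the reads of Cyp2b13 plus Cyp2b9 in Intact mice with ovaries, 3.41% ± 2.21 with testes, 42.9% ± 2.29 in the former ovary arm and 40.2% ± 6.20 in the former testis arm. By the same permutation tests that share differed between Intact arms and with castration (both p = 2e-05, the smallest these tests can give, adjusted 5.33e-05) and by 7.19 points with ovariectomy (p = 0.0116, adjusted 0.0133). It did not differ detectably between GDX arms, by 2.65 points (permutation p = 0.187). These 8 tests, adjusted together, were chosen after the values had been seen.

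Summed, Cyp2a4 plus Cyp2a5 was higher with ovaries in Intact mice by 1.75 on the log2 scale (SE 0.17, adjusted p = 9.1e-11), fell by 0.75 after ovariectomy and rose by 0.66 after castration (adjusted p = 0.000845). Cyp2b9, Cyp2b10 and Cyp2b13 summed were higher with ovaries by 1.85 (SE 0.21, adjusted p = 8.03e-09), rose by 2.30 after castration and rose by 0.52 after ovariectomy (adjusted p = 0.0254).

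The chromosomal effect compares XX and XY mice over both gonads and both cohorts. Of the 7 members 5 were higher in XX mice and none was lower, where 36.7% of all tested genes were called and 21.9% were higher in XX. The members' median difference was 0.56 on the log2 scale, against 0.05 over all tested genes. Cyp2b10 was 1.83-fold higher in XX (log2 0.87, SE 0.25, adjusted p = 0.00569). It was called in no gonadal, castration or ovariectomy comparison. Cyp2a22 was 1.66-fold higher (SE of log2, 0.19, adjusted p = 0.00149), Cyp2b13 1.52-fold (SE 0.19, adjusted p = 0.0111), Cyp2b9 1.47-fold (SE 0.15, adjusted p = 0.00316) and Cyp2a12 1.3-fold (SE 0.07, adjusted p = 8.2e-06). Cyp2a4 (log2 0.37, 95% interval, -0.06 to 0.79) and Cyp2a5 (0.14, -0.14 to 0.43) were not called. With no filter beyond 1 read the Cyp2b13 call was lost here (log2 0.55, adjusted p = 0.0583) and in Intact mice alone (log2 0.90, adjusted p = 0.0808). Library totals in place of TMM scaling moved the share of all calls that were higher in XX from 59.8 to 28.2%, and 5 members were called under either scaling.

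Among Intact mice alone, 5 of 7 members were higher in XX mice (all genes called, 10.7%, higher in XX, 4.27%). Cyp2a4 was 2.36-fold (log2 1.24, SE 0.31, adjusted p = 0.0042), Cyp2a22 2.33-fold (log2 1.22, SE 0.27, adjusted p = 0.0011), Cyp2b13 1.89-fold (adjusted p = 0.0239), Cyp2b9 1.74-fold (adjusted p = 0.01) and Cyp2a12 1.27-fold higher (adjusted p = 0.00803). Cyp2b13 was no longer called without XX Te Intact mouse 1 (log2 0.74, adjusted p = 0.0875) or without mouse 4 of that group (log2 0.74, adjusted p = 0.0793). When only the 24 Intact mice entered the fit, 2 members were called. The Cyp2a4 call was lost when its reads were summed with those of Cyp2a5 (log2 0.24, adjusted p = 0.40), a sum that is mostly Cyp2a5 in mice with testes.

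Read in Intact mice with testes only, a contrast added after the data had been seen, 3 members were higher in XX (all genes called, 2.1%, higher in XX, 0.649%). These were Cyp2a4 (4.03-fold, log2 2.01, SE 0.45, adjusted p = 0.00749), Cyp2a22 (3.55-fold, log2 1.83, SE 0.39, adjusted p = 0.00447) and Cyp2b9 (2.36-fold, log2 1.24, SE 0.31, adjusted p = 0.0216), while Cyp2b13 missed (log2 1.37, adjusted p = 0.0757). For Cyp2a22 and for Cyp2b9, 5 of 6 XX mice exceeded every XY mouse. The Cyp2a4 call was lost without XX Te Intact mouse 4 (log2 1.40, adjusted p = 0.0841) and the Cyp2b9 call without mouse 1 of that group (log2 0.97, adjusted p = 0.126), and with only these 12 mice in the fit no member was called. Summed with Cyp2a5, Cyp2a4 was no longer called (log2 0.14, adjusted p = 0.842), nor was Cyp2b9 with no filter beyond 1 read (adjusted p = 0.0564). Cyp2a4 made up a mean of 5.64% of the pair's reads in these XX mice and 1.59% in these XY mice. The sum therefore mostly reports Cyp2a5 and cannot decide whether Cyp2a4 itself differed. Multimapping reads were 11.0 to 18.9% of reads in XY and 11.8 to 14.3% in XX Intact mice with testes. XY mouse 2, with the highest multimapping share, was the lowest for Cyp2a4, Cyp2a22, Cyp2b9 and Cyp2b13, and the part of multimapping in these differences was not tested.

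In GDX mice 2 members were higher in XX (all genes called, 34.3%, higher in XX, 19.5%). Cyp2b10 was 2.28-fold higher (log2 1.19, SE 0.36, adjusted p = 0.00887) and Cyp2a12 1.32-fold higher (log2 0.40, SE 0.09, adjusted p = 0.000531), with all 6 XX mice above all 6 XY mice for Cyp2a12 in the former ovary arm. Cyp2a4 pointed the other way, at -0.51 (95% interval, -1.10 to 0.09, adjusted p = 0.188), and with only the 24 GDX mice in the fit it was called lower in XX (log2 -0.56, adjusted p = 0.0354). Its chromosomal effect differed between cohorts by -1.74 (GDX minus Intact, SE 0.42, adjusted p = 0.0222). That was the only call among the members in a test that called 2.12% of all tested genes. For the sum with Cyp2a5, mostly Cyp2a5 reads in the testis arms, the call was lost (log2 -0.25, adjusted p = 0.654). For Cyp2a22 the difference between cohorts was -0.98 (95% interval, -1.73 to -0.24, adjusted p = 0.163). In GDX mice that had testes, an added contrast, Cyp2a12 was the 1 member called (log2 0.36, adjusted p = 0.0469, all genes called, 19.4%), and the call was lost in 19 of 48 fits that left out 1 mouse, with adjusted p up to 0.144.

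Summed neutrophil, macrophage and endothelial markers had higher medians in XY than in XX mice in each pair of groups. Lymphocyte markers did so except in Intact mice with testes, and stellate cell medians lay closer together. No marker list was tested. The summed neutrophil markers, mostly S100a8 and S100a9, had a median of 7.18 CPM in XX (1.29 to 17.7) against 125 CPM in XY (41.0 to 701) Intact mice with ovaries. In those with testes it was 3.37 CPM (1.44 to 29.1) against 28.0 CPM (3.80 to 99.9). In GDX mice the medians were 1.16 against 24.9 CPM in the former ovary arm and 0.567 against 8.40 CPM in the former testis arm. Summed Kupffer cell and macrophage markers followed, with medians of 165 against 277, 103 against 190, 118 against 420 and 130 against 366 CPM in the same order of groups. Endothelial markers (4 of 4) had medians of 139 against 185, 127 against 140, 140 against 285 and 177 against 280 CPM. Lymphocyte markers (4 of 4) had medians of 2.14 against 3.81, 1.72 against 1.38, 2.48 against 5.58 and 1.77 against 4.67 CPM. Stellate cell and fibroblast markers (4 of 4) had medians of 233 against 269, 185 against 187, 285 against 286 and 218 against 248 CPM. Adipocyte markers (4 of 4), a sum that is almost all Cidec, went the other way, with higher medians in XX in each pair. These were 8.11 against 3.95, 44.0 against 14.5, 32.1 against 5.55 and 15.7 against 3.87 CPM. The part of these marker lists in the chromosomal effects on the Cyp2a and Cyp2b genes was not tested.

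The nearest other genes of the cluster moved in both directions. Of 6 further Cyp2 genes there, 2 passed the filter. Cyp2g1, a P450 best known from olfactory tissue, was higher with ovaries in Intact mice (log2 2.0, SE 0.29, adjusted p = 1.24e-06) and rose after castration (log2 1.67, adjusted p = 5.79e-06). Cyp2f2, a naphthalene-oxidizing P450, was lower with ovaries (log2 -1.01, SE 0.14, adjusted p = 2.15e-07) and rose after ovariectomy (log2 0.96, adjusted p = 5.64e-08). Cyp2b19, Cyp2b23, Cyp2s1 and Cyp2t4 were below the filter.

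**Figure D4:**
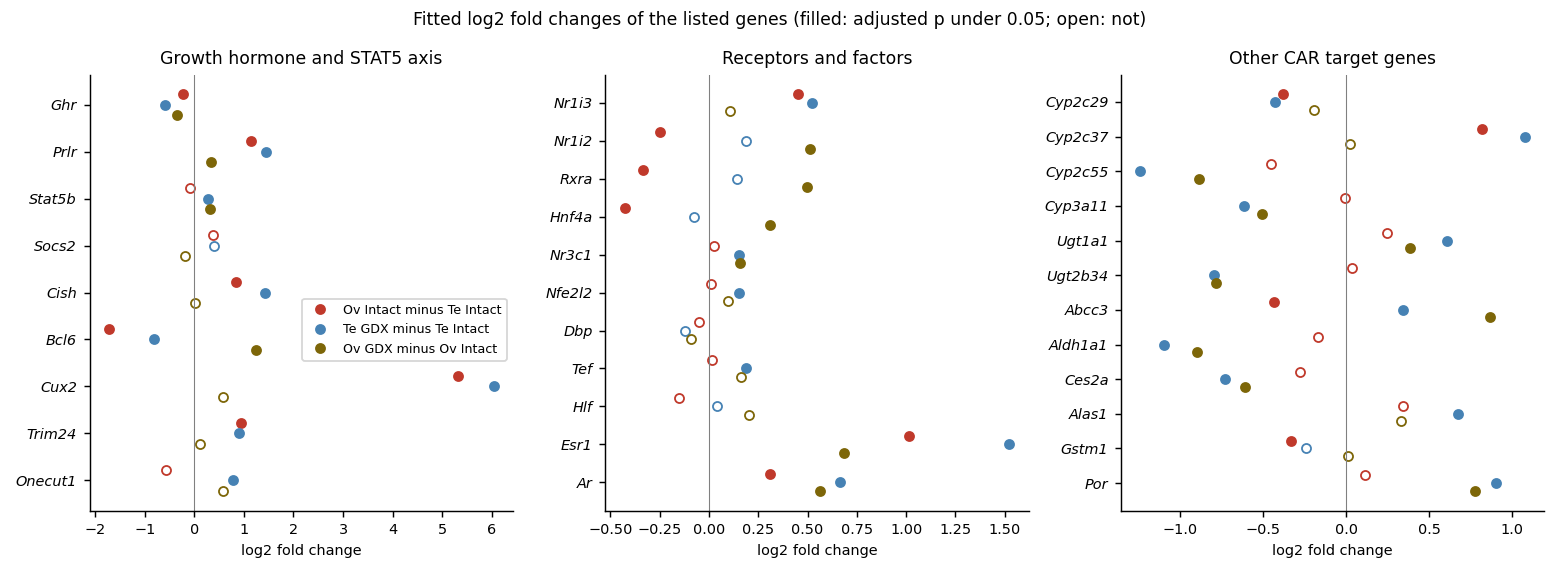
Log2 differences (x axis) of the genes of 3 pathway lists in 3 comparisons: Ov Intact minus Te Intact, Te GDX minus Te Intact and Ov GDX minus Ov Intact. Cux2 lies at 5.31 and 6.04 in the first 2 comparisons and Bcl6 at -1.72, -0.82 and 1.25 in the 3 comparisons, while among the receptors and factors Esr1 reaches 1.02 and 1.52 in the first 2.

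The sex-dependent growth hormone and STAT5 list had 9 tested genes. Between Intact arms 4 were higher with ovaries and 2 lower (median log2, 0.39 against 0.04 over all genes), and after castration 6 rose and 2 fell (0.77 against 0.07). Cux2, a repressor of male-biased liver genes, was higher with ovaries by 5.31 (SE 0.44, adjusted p = 6.06e-13) and rose by 6.04 after castration (SE 0.44, adjusted p = 1.82e-14). Bcl6, a repressor of female-biased liver genes, had a difference of -1.72 between Intact arms (SE 0.24, adjusted p = 3.86e-07), fell by 0.82 after castration (adjusted p = 0.00226) and rose by 1.25 after ovariectomy (adjusted p = 1.15e-05). Prlr, the prolactin receptor, was higher with ovaries by 1.15 (adjusted p = 5.94e-08) and rose by 1.44 after castration (adjusted p = 9.76e-11). After ovariectomy 3 genes of the list rose and 1 fell (median, 0.31 against 0.06 over all genes), by chromosomes 2 were higher in XX (0.03 against 0.05), and between GDX arms none was called (-0.04 against -0.01). Over all tested genes 25.3% were called between Intact arms, 63.3% after castration, 69.4% after ovariectomy, 36.7% by chromosomes and 0.0908% between GDX arms. With library totals in place of TMM scaling, 6 genes of the list rose and none fell after ovariectomy, and 7 rose and 2 fell after castration.

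The receptors and factors known to act on Cyp2a or Cyp2b genes numbered 11. With ovaries 3 were higher and 3 lower in Intact mice (median, 0.01), after castration 6 rose and none fell (0.15), after ovariectomy 6 rose and none fell (0.20), and 3 were higher in XX (0.10). The 6 of 11 called after castration and after ovariectomy stand beside 63.3% and 69.4% of all tested genes, and the 3 called by chromosomes beside 36.7%. Between Intact arms 25.3% of all tested genes were called. Esr1, which encodes estrogen receptor alpha, was higher with ovaries by 1.02 (SE 0.13, adjusted p = 4.85e-08) and rose by 1.52 after castration (adjusted p = 8.17e-13). Nr1i3, which encodes CAR, was higher with ovaries by 0.45 (SE 0.13, adjusted p = 0.0117) and rose by 0.52 after castration (adjusted p = 0.000811). Hnf4a, a hepatocyte identity factor, had a difference of -0.43 between Intact arms (adjusted p = 0.00657). With library totals in place of TMM scaling, 8 of the 11 rose after castration and 10 after ovariectomy. Between Intact arms 2 were then higher and 1 lower with ovaries.

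The other CAR target genes, 12 in number, moved in both directions with the gonad. Between Intact arms 1 was higher and 3 were lower with ovaries (median, -0.09), after castration 5 rose and 6 fell (-0.34), after ovariectomy 3 rose and 5 fell (-0.09), and 8 were higher in XX and none lower (0.38). Over all tested genes 25.3% were called between Intact arms, 63.3% after castration and 69.4% after ovariectomy, and 21.9% were higher in XX. With library totals 7 of the 12 were higher in XX and none lower, and between Intact arms 1 was higher and 1 lower with ovaries. Cyp2c37, a P450 of arachidonic acid metabolism, was higher with ovaries by 0.82 (SE 0.22, adjusted p = 0.00514) and rose by 1.08 after castration (adjusted p = 5.05e-05). Cyp2c55 fell by 1.24 (adjusted p = 2.58e-06) and Aldh1a1, a retinaldehyde dehydrogenase, fell by 1.10 (adjusted p = 3.46e-05) after castration. In GDX mice no gene of this list or of the receptor list was called by former gonad, where 0.0908% of all tested genes were called.

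Across the 8 group means on a log2 scale, and as a description only, Cyp2b13 was most like Cyp2a22 among the members (Pearson's r = 0.975), Cyp2b9 like Cyp2a22 (0.974) and Cyp2a4 like Cyp2a5 (0.948). Cyp2b9 and Cyp2b13, with near-identical windows before their starts, had r = 0.928, and Cyp2a12 and Cyp2a22 had r = 0.637. Cyp2b10 had r of -0.143 to 0.112 with the other 6 members. Of 14114 genes, members included, the closest non-members by the same measure were Cyp17a1 (0.981) and ENSMUSG00000099032 (0.979) for Cyp2a4. They were Nipal1 (0.991) and Caprin2 (0.979) for Cyp2a5, and Fggy (0.992) and Ndufv1 (0.990) for Cyp2a12. For the others they were Dclre1a (0.992) and Vldlr (0.991) for Cyp2a22, Zkscan4 (0.994) and Cyp2c38 (0.990) for Cyp2b9, Gm2223 (0.946) and Hcfc1r1 (0.938) for Cyp2b10, and Atp6v0d2 (0.994) and 1700049G17Rik (0.990) for Cyp2b13. The 8 points share libraries and scaling, so no p is given.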

How the data were processed

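Liver RNA from 48 mice was prepared with a KAPA mRNA HyperPrep kit. Per the submitters' processing notes, the authors aligned reads to GRCm39 and made read counts per gene with STAR 2.7.10a. The annotation release and the strand setting are not given in the sources used here. The deposited table holds raw counts for 55414 Ensembl genes, of which 31020 (56.0%) matched a symbol, and 4 summary lines, which were left out of library sizes and tests. These gave ambiguous reads as 2.53 to 3.55%, multimapping reads as 8.59 to 18.9%, reads in no gene as 3.47 to 11.3% and unmapped reads as 6.99 to 16.5% of each library. Within groups, all 120 pairs of mice differed beyond sampling noise (chi-square per gene, 8.57 to 342).

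Levels are counts scaled to 1000000 reads on genes (CPM). Groups were compared with edgeR 4.0.16 (R 4.3.3): filterByExpr, TMM scaling, a quasi-likelihood fit of 8 group means to all 48 mice, and Benjamini-Hochberg adjustment over 15414 genes, with a call at an adjusted p under 0.05. Where 200 of 15060 genes were changed by 2-fold in counts simulated for the gonadal effect in Intact mice, 176 (88%) were recovered and 16 of 192 calls were false; with no change, 0 of 15078 genes were called. Alternatives used DESeq2 1.42.0, sva 3.50.0, library totals, other filters, a fold of at least 1.5, summed near-identical genes and each mouse left out. The sums joined Cyp2a4 with Cyp2a5, and Cyp2b9 with Cyp2b10 and Cyp2b13. Cyp2a12 and Cyp2a22 were not summed.

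Shares of pairs were compared with permutation tests in scipy 1.17.1 (Python 3.11.15). Sequences came from RefSeq (GRCm38.p6), and transcript lengths and positions from GENCODE vM1 (NCBIM37), aligned with Biopython 1.88. Genes named in the text are the 7 members, 5 lists of related genes and, for each member, the 2 other genes with the most similar 8 group means (Pearson's r of mean log2 of CPM plus 0.5, among 14114 genes whose mean log2 CPM was 0 or more). The members and lists were chosen with earlier results of these data known. The detection floor covers counting error only. Each library is from a separate mouse.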

Additional observations from a re-analysis of the deposited data

Results flagged for a closer look

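In 5 of 56 combinations of gene and group, the highest of 6 mice stood apart from the others by Dixon's criterion at the 95% level, which chance alone passes in about 1 in 20 groups. XX Te Intact mouse 4 had 66.3 CPM of Cyp2a4, with the next mouse at 28.5 CPM. XY Te Intact mouse 6 had 21.0 CPM of Cyp2a22, against 9.10 CPM in the next. XX Te Intact mouse 1 had 477 CPM of Cyp2b9, against 228 CPM. For Cyp2b10, XX Ov Intact mouse 4 had 21.5 CPM, against 9.42 CPM, and XY Ov Intact mouse 3 had 20.9 CPM, against 7.81 CPM.

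Effects that differed between arms or cohorts, by edgeR's test of the difference itself, are listed with their sizes on the log2 scale. The castration effect exceeded the ovariectomy effect by 4.33 for Cyp2a4, 3.03 for Cyp2a22, 1.28 for Cyp2b9 and 5.31 for Cyp2b13. The chromosomal effect on Cyp2a4 in GDX mice minus that in Intact mice was -1.74.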

How the results depend on the processing

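No paired analysis was possible because each mouse has its own identifier and replicate numbers were given in accession order only. Library totals in place of TMM scaling shifted the median of all genes by 0.21 for ovariectomy, 0.20 for castration and -0.18 for the chromosomal effect in GDX mice, and moved the share of calls that were higher from 52.7 to 69.4% for castration, 51.9 to 66.1% for ovariectomy, 55.6 to 68.0% for the gonadal effect in Intact mice and 59.8 to 28.2% for the chromosomal effect. The number of members called in the last 2 and in castration was unchanged at 5, 5 and 6.

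In GDX mice that had testes the chromosomal call of Cyp2a12 was lost (0 members called) with DESeq2 size factors, library totals, DESeq2's test, no low-count filter, at least 10 reads in every mouse or a fold of at least 1.5. With only the groups compared in the fit, the chromosomal effect called 2 members in Intact mice, 4 in GDX mice (Cyp2a4 among them, lower in XX) and 0 in Intact mice with testes; comparisons over all 8 groups have no such alternative. A fold of at least 1.5 left 3 members for the chromosomal effect and 1 in GDX mice. With near-identical genes summed, each member taking the value of its sum, calls became 0 for the gonadal effect in GDX mice, 6 for ovariectomy, 1 for the chromosomal effect in GDX mice and 0 for its difference between cohorts. Members of the same sum share a single test, so these counts repeat results and are not comparable with the counts above. Cyp2b10 then changed sign, since its sum is dominated by Cyp2b9 and Cyp2b13: 0.52 for ovariectomy, 2.30 for castration, 1.82 and 2.78 for castration in XX and XY, and 1.44 for the gonadal effect in XX mice. On TMM-scaled library sizes, Cyp2a12 averaged 430 CPM in XY Ov GDX and 467 CPM in XY Te GDX mice, Cyp2b9 473 and 472 CPM, and Cyp2b13 354 and 342 CPM. Beyond these, why a call changed was not tested.

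Leaving out each of 48 mice gave 5 members for the gonadal effect in Intact mice, 3 to 5 in XX and 4 to 5 in XY, 1 in GDX mice, 5 to 6 for castration, 4 to 5 in XX and 4 to 5 in XY, 3 to 5 for ovariectomy, 4 to 5 for the difference between both surgeries, 5 for the chromosomal effect, 4 to 5 in Intact and 2 in GDX mice, 2 to 4 and 0 to 2 in the testis arms, 1 for its difference between cohorts and 0 for the difference between XX and XY gonadal effects. Cyp2b10 rests on 21 to 419 reads per library.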

Other observations

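The partners that supply P450 enzymes with electrons, 5 genes in all, moved in both directions. Por, the NADPH-cytochrome P450 reductase, rose by 0.90 on the log2 scale after castration (SE 0.14; adjusted p = 3.53e-07, edgeR) and by 0.78 after ovariectomy (SE 0.14; adjusted p = 3.01e-06). Pgrmc1, a heme-binding partner of P450 enzymes, fell by 1.08 (SE 0.15; adjusted p = 5.28e-08) and by 1.10 (SE 0.15; adjusted p = 1.6e-08), and Cyb5a, microsomal cytochrome b5, fell by 0.88 (SE 0.16; adjusted p = 1e-05) and by 1.23 (SE 0.16; adjusted p = 1.12e-08). In all, 1 rose and 3 fell after castration (median log2, -0.59 against 0.07 over all genes) and 1 rose and 3 fell after ovariectomy (-0.18 against 0.06). Between Intact arms none was higher and 2 were lower with ovaries (0.00 against 0.04), and 2 were higher in XX (0.24 against 0.05). These counts stand beside 63.3% of all tested genes called after castration and 69.4% after ovariectomy. Between Intact arms 25.3% of all tested genes were called, and by chromosomes 36.7%. With library totals in place of TMM scaling, 2 rose and 2 fell after ovariectomy.

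A few mice held the extremes of several members. XX Te GDX mouse 4 was the lowest of its group for Cyp2a4 (19.7 CPM), Cyp2a22 (62.6 CPM), Cyp2b9 (506 CPM) and Cyp2b13 (158 CPM) and the highest for Cyp2b10 (19.5 CPM). XX Ov Intact mouse 4 was the lowest for Cyp2a5 (290 CPM), Cyp2a12 (281 CPM), Cyp2a22 (52.1 CPM) and Cyp2b13 (82.4 CPM) and the highest for Cyp2a4 (1268 CPM) and Cyp2b10 (21.5 CPM). XY Te Intact mouse 2 held 10.5 CPM of Cyp2b9, against 35.0 to 176 CPM in the other 5 mice.

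Among the marker lists not given above, the cholangiocyte markers (4 of 4) had group medians of 3.34 to 7.01 CPM. The 4 pancreas markers summed to 0 to 0.544 CPM, with Pnlip at 0 reads in all 48 libraries. The summed adipocyte markers, given above by sex chromosomes, were highest in XX Te Intact mice, at 16.1 to 103 CPM. Almost all of this sum was Cidec, as Adipoq had 0 reads in 29, Plin1 in 42 and Lep in 43 of all libraries.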
